A study of Mus musculus with 37 samples.

Results

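The genes examined here encode the histones that package DNA in mouse oocytes and two-cell embryos, among them the oocyte linker histone H1foo. They were chosen by their symbols, from the protein-coding genes whose names begin with Hist and a digit, H1f, H2af or H2bf, and the 2 genes of the replacement histone H3.3 were left out. Of 29294 symbols listed in at least 1 of 4 RNA-seq tables, 76 were histone genes, and 46 of these were listed in all 4. The table of ZH GV oocytes listed 74 histone genes among 25053 genes, that of CabZ GV oocytes 53 of 19033, that of CabZ 2-cell embryos 68 of 24305 and that of injected 2-cell embryos 54 of 15855.

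The study asked what happens to oocytes and to the embryos that they form when the Hira complex, which deposits H3.3, is disrupted. Per the methods, wild-type mice and the floxed Hira and Cabin1 lines were C57BL/6. The background of the Zp3-Cre line crossed to them was not stated there, and the age of the mice was not given. In ZH KO oocytes the floxed Hira gene, and in CabZ KO oocytes the floxed Cabin1 gene, is removed by Zp3-Cre, which is driven in growing oocytes. ZH Het and CabZ Het controls also carry Zp3-Cre, with 1 floxed allele, so that a control without Cre was not part of these comparisons. GV oocytes, which are fully grown and arrested at the germinal vesicle stage, came from females primed with PMSG, and there were 4 RNA-seq libraries per genotype. CabZ Het and CabZ KO 2-cell embryos had 4 libraries each. Whether they arose by fertilisation or by parthenogenetic activation was not stated for these libraries. In the remaining experiment wild-type GV oocytes had received GFP RNA (4 libraries) or Zscan4d RNA (3 libraries, Zscan4 OE), and were matured and activated without sperm to the 2-cell stage. The methods describe 10 pooled oocytes per library, while the sample records speak of individual cells. In addition, 3 ATAC-seq libraries per genotype were available from pools of about 100 CabZ GV oocytes. Nothing states that replicates came from separate animals, so that p-values measure only the spread between these samples. In a pool, a lower level in every cell and a low level in some of the cells cannot be told apart.

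Core histones H2A, H2B, H3 and H4 form the nucleosome, and the linker histone H1 binds the DNA between nucleosomes. Most core histones are made in S phase from clustered, intronless, replication-dependent genes, whose mRNAs are unusual in that they end in a conserved stem-loop instead of a poly(A) tail. The stem-loop is bound by Slbp and the transcript is cut by a dedicated processing complex, while the coactivator Npat drives transcription of the clusters. Variant histones such as H2A.Z are made throughout the cell cycle from ordinary polyadenylated mRNAs. H1foo is the linker histone of the oocyte, held in oocytes and in the first cleavage embryos before somatic H1 takes its place.

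By these roles there were 63 replication-dependent genes (5 of H1, 17 of H2A, 17 of H2B, 12 of H3 and 12 of H4), 10 variants, 2 testis-type genes (Hist1h2aa and Hist1h2ba) and H1foo. Of the 76 genes, 52 lie in the Hist1 cluster on chromosome 13, 10 in the Hist2 cluster on chromosome 3 and 2 in the Hist3 cluster on chromosome 11. Sequence that the choice by name did not use set the classes apart. The histone stem-loop motif, 16 bases of which the inner ones are CTTTT and AG around 1 free base, was searched on the transcribed strand within 150 bases after each stop codon in GRCm38. It was found in 59 of 63 replication-dependent genes (93.7%), in 2 of 10 variants, in both testis-type genes and not in H1foo. Among all 21727 protein-coding genes it occurred in 66 (0.304%), and only 3 of these were not histone genes as defined here. A poly(A) signal (AATAAA or ATTAAA) stood within 500 bases after the stop codon of 33.3% of replication-dependent genes and of 61.9% of all protein-coding genes. H1foo had a poly(A) signal and no stem-loop. The amplification kit captures mRNA by its poly(A) tail, and so the values of stem-loop genes stand for the transcripts that the kit captured.

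The stem-loop sites of genes on which the results turn are printed with the stem-loop in capitals, since they show how alike the genes are at this element. Their GRCm38 positions are chr13:21833022-21833051 on the minus strand for Hist1h2ap, chr3:96246025-96246054 for Hist2h2aa1, chr13:21754526-21754555 for Hist1h2bn, chr13:22036293-22036322 for Hist1h2bk and chr9:44335233-44335262 for H2afx, the last 4 on the plus strand.
Hist1h2ap: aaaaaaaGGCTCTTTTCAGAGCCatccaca
Hist2h2aa1: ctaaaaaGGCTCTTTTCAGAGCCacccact
Hist1h2bn: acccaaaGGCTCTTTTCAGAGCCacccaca
Hist1h2bk: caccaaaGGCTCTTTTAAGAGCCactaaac
H2afx: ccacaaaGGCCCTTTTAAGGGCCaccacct

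The form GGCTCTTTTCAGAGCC was the commonest and was shared by 42 genes. H2afx, a variant that is phosphorylated at DNA breaks, is known to make both a stem-loop and a polyadenylated mRNA. The 4 replication-dependent genes without the motif were Hist1h2an, Hist1h3g, Hist1h4a and Hist2h2be.

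Promoters also differed by class. RefSeq promoters (GRCm38.p6) were matched for 68 of the 76 genes, and a window of 250 bases before to 50 bases after the start was searched on both strands. The CCAAT box (CCAAT) was present in 86.0% of replication-dependent promoters, in every H1, H2A, H2B and H3 promoter among them but in 27.3% of H4 promoters, and in 37.4% of all promoters. The TATA box (TATAAA) was present in 56.1% of them and in 13.6% of all, and the octamer (ATTTGCAT) in 37.5% of H2A, 33.3% of H2B and 1.74% of all promoters. Hist1h2aa and Hist1h2ba are transcribed away from each other and share 1 promoter region. It is printed after that of H1foo because ATAC-seq peaks stood at both and because these 3 genes changed in at least 1 comparison. The printed bases lie directly before the start of H1foo (chr6:115944681-115944930, plus strand) and of Hist1h2aa (chr13:23934187-23934436, plus strand), with matches of the 3 motifs on either strand in capitals.
H1foo: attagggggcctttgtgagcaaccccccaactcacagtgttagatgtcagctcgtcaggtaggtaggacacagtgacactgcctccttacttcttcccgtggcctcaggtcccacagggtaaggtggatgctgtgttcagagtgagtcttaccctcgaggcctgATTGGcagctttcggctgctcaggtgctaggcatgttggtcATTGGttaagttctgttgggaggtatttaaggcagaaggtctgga
Hist1h2aa and Hist1h2ba: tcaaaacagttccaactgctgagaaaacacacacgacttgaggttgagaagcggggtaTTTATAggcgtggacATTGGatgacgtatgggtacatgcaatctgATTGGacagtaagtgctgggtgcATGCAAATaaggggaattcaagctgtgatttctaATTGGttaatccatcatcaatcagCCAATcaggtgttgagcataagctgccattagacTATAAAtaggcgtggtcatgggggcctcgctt

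In these bases H1foo had 2 CCAAT matches and no TATA box or octamer, whereas the region of Hist1h2aa and Hist1h2ba had 4 CCAAT matches, 2 TATA boxes, and 1 octamer.

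Levels are given as FPKM, read counts scaled to library depth and divided by the length of the gene span. Between 5815452 and 21845741 reads per library were counted on genes, with 7944503 to 8232793 in CabZ Het and 5815452 to 6327694 in CabZ KO 2-cell embryos. Each table was normalised on its own, so values of different tables are only set side by side. Oocyte markers were detected at high level in GV oocytes, and those of granulosa and cumulus cells summed to 0.490 to 0.747 FPKM in ZH Het and 1.84 to 3.11 FPKM in ZH KO oocytes. Hira was counted with 0 to 14 reads per ZH library, which does not check the ZH labels. Cabin1 averaged 0.119 and 0.0242 FPKM in CabZ Het and KO oocytes and 0.322 and 0.134 FPKM in CabZ Het and KO 2-cell embryos. These means were under the 1 FPKM required for a test. The reads per library were 117 to 209 in Het and 14 to 57 in KO oocytes. In 2-cell embryos they were 215 to 443 in Het and 44 to 125 in KO. At both stages every KO library was below every Het library in FPKM. A lower Cabin1 was not particular to the CabZ line, with 0.286 and 0.0864 FPKM in ZH Het and KO oocytes. Hira was also lower in CabZ KO 2-cell embryos (0.233 FPKM in Het and 0.0434 in KO). Zscan4d was not higher in the libraries labelled Zscan4 OE (79.4 ± 7.94 FPKM, SD, n = 3) than in the GFP libraries (117 ± 34.4, SD, n = 4), so these 2-cell values do not bear out the labels. They do not test them either, since the RNA was injected at the GV stage and GFP embryos also held Zscan4d mRNA. The paper reports overexpression of Zscan4 after injection by qRT-PCR, immunofluorescence and western blot, relative to an uninjected group. Many histone genes are near copies of each other. In 23 of the 76 genes more than 50 percent of the 100-base windows occurred in another of the 76, with 92.2% for Hist1h2ap (mostly Hist1h2ao) and 88.1% for Hist2h2aa1. For 9 of 10 variants and H1foo none was shared with these genes. Other genes and pseudogenes were not searched for the windows. How the counting dealt with reads of shared sequence is not given in the sources used here, so values of single near-copies are uncertain. The same holds for genes that overlap another gene model, among them Hist2h2aa1, H1f0, H1fx and many H2A genes with antisense models.

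Differences were fitted with limma on log2(FPKM + 1) for genes averaging 1 FPKM or more, and p-values were adjusted by Benjamini-Hochberg over all genes tested in a table. A gene was called up or down at an adjusted p under 0.05 and a change above 1 on the log2 scale. Differences on this scale are smaller than those of the FPKM themselves for genes of low level. Histone genes that passed the filter numbered 29 of 74 in ZH GV oocytes, 34 of 53 in CabZ GV oocytes, 55 of 68 in CabZ 2-cell embryos and 30 of 54 in injected embryos.

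H1foo was the most abundant histone mRNA in every group of GV oocytes per length of exon, and it was lower in ZH KO oocytes. Its FPKM were 1333, 1193, 879.9 and 1138 in the ZH Het libraries and 545, 673, 512 and 687 in the ZH KO libraries. Every ZH KO library was below every ZH Het library. The means were 1136 ± 189.5 and 604 ± 88.5 (SD, n = 4 each), a difference of -0.90 on the log2 scale (SE 0.16, adjusted p 0.00158, limma), which did not reach the fold change required for a call. Oocyte markers moved in the same direction. Of 14 tested in ZH GV oocytes, 6 were lower (4 of them called down) and 1 was higher. Over all genes tested 26.3% were lower, 7.2% called down and 25.6% higher. The markers had a median of -0.74 against -0.041 over all genes tested. Their summed FPKM were 3474 to 3650 in Het and 2434 to 3306 in KO libraries. Their part in the result was not tested. In CabZ GV oocytes H1foo had 1197, 932, 1494 and 1365 FPKM in the Het and 1167, 1161, 1117 and 1151 in the KO libraries. The KO values lay within the range of the Het values, and the difference was -0.10 (SE 0.14, adjusted p 0.720, limma).

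**Figure D1:**
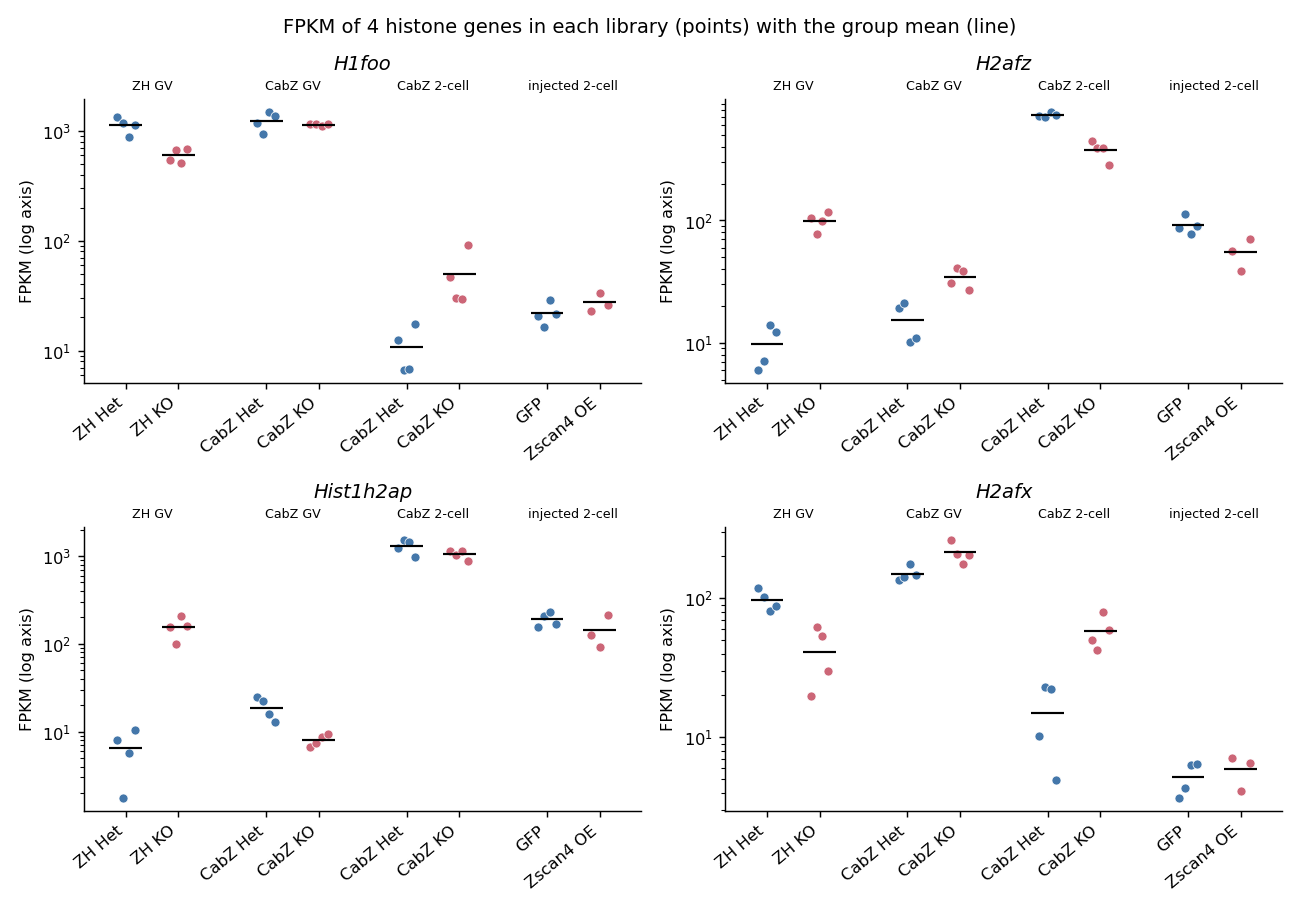
FPKM on a log axis of H1foo, H2afz, Hist1h2ap and H2afx in each library (points) with the group mean (line), for Het or GFP (blue) and KO or Zscan4 OE (red). H1foo fell from 1136 to 604 FPKM in ZH GV oocytes and was at 10.8 and 49.4 FPKM in CabZ Het and KO 2-cell embryos, while H2afz was higher in both KO oocytes and lower in CabZ KO 2-cell embryos.

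At the 2-cell stage H1foo was present at far lower values, and there it was higher in CabZ KO embryos. CabZ Het libraries had 12.5, 6.65, 6.76 and 17.5 FPKM and CabZ KO libraries 46.9, 29.9, 29.5 and 91.5 FPKM. All KO libraries exceeded all Het libraries, with library 4 the highest in each genotype, and H1foo was called up (2.03, SE 0.42, adjusted p 0.00292, limma; 4.56-fold in mean FPKM). Other maternal mRNAs moved with it. Of 13 tested oocyte markers, 11 were higher in CabZ KO 2-cell embryos (6 of them called up, none called down). Over all genes tested 25.2% were higher, 16.9% called up and 20.4% called down. The markers had a median of 0.96 against -0.11 over all genes tested. Gdf9, an oocyte growth factor, had 11.2 ± 1.98 FPKM in CabZ Het and 48.3 ± 24.4 in CabZ KO embryos, while Zp3, a zona pellucida protein, had 11.9 ± 4.21 and 11.4 ± 5.64 (SD, n = 4 each). The summed FPKM of the oocyte list was 1691 to 2065 in Het and 1308 to 3042 in KO embryos and none of its genes was at 0. Their part in the result was not tested. In injected embryos H1foo had 20.5, 16.4, 28.8 and 21.4 FPKM with GFP and 23.0, 33.4 and 26.2 with Zscan4 OE. The groups overlapped (0.34, SE 0.21, adjusted p 0.399, limma).

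In ZH GV oocytes, histone genes went in both directions. Of 29 tested, 4 were called up (10.5% of all 5792 genes tested were) and 3 called down (7.2% of all genes). At any size, 8 were higher and 6 lower, against 25.6% and 26.3% of all genes tested. The median difference was 0.0045, against -0.041 over all genes. The replication-dependent genes made up 20 of those tested, with 3 up and 1 down and a median of 0.17. Other scalings of the libraries moved the median over all genes by -0.15 or 0.12, and the share of higher genes among all calls from 59.2% to 42.9% or 72.0%.

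The largest differences were in 2 genes of the H2A family. Hist1h2ap, a replication-dependent H2A gene (chr13:21833026-21833508, minus strand), had 7.96, 1.77, 5.73 and 10.5 FPKM in the ZH Het libraries and 155, 100.5, 205 and 159 in the ZH KO libraries. The groups were far apart, at 6.48 ± 3.69 and 155 ± 42.9 FPKM (SD, n = 4 each; difference 4.52, SE 0.40, adjusted p 3.06e-05, limma). H2afz, which encodes the variant H2A.Z found at promoters (chr3:137864487-137866923, plus strand), had 6.01, 7.16, 13.9 and 12.3 FPKM in ZH Het and 105, 78.0, 98.4 and 117 in ZH KO oocytes. The mean rose 10.1-fold (3.27, SE 0.25, adjusted p 1.39e-05, limma), again without overlap.

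The other genes called up were replication-dependent genes of low level in ZH Het oocytes. Hist1h4d, an H4 gene, rose from 0.590 ± 0.242 to 3.47 ± 1.26 FPKM (1.45, SE 0.22) and Hist1h1e, which encodes a somatic linker histone, from 0.180 ± 0.0896 to 1.92 ± 0.908 FPKM (1.26, SE 0.20). Both passed the filter on low values only through the KO libraries, which had to be higher for that reason. Hist1h1e overlaps Hist1h2be, so its reads could belong to either gene. Of the genes that were higher by less than the fold threshold, H2afv and H2afj, variants of the H2A family, had differences of 0.50 (SE 0.13) and 0.58 (SE 0.18). The groups overlapped for H2afj, and its adjusted p (limma) was over 0.05 without Het library 2, Het library 3 or KO library 4.

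H2afx and Hist1h2aa were lower. H2afx had 119, 101, 80.8 and 87.1 FPKM in ZH Het and 19.8, 61.8, 53.7 and 29.9 FPKM in ZH KO libraries, and no values overlapped (-1.33, SE 0.32, adjusted p 0.00724, limma). Hist1h2aa, an H2A gene known from testis and oocytes (chr13:23934462-23934852, plus strand), had 17.2, 15.4, 17.9 and 18.3 FPKM in ZH Het and 4.93, 2.88, 5.60 and 5.26 in ZH KO libraries (-1.71, SE 0.17, adjusted p 7.04e-05, limma). Its neighbour Hist1h2ba, on the other side of the shared promoter, was at 2.10 ± 0.859 and 1.95 ± 1.38 FPKM (SD, n = 4 each), and the groups overlapped. Hist2h3c1, an H3 gene that overlaps the gene model Gm20634, was the remaining gene called down, from 2.62 ± 1.06 to 0.332 ± 0.663 FPKM. Its reads could belong to either, and it passed the filter only through the Het libraries, which had to be higher for that reason.

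Below the filter stood H2afb1, an X-linked short H2A variant known from the male germline, chosen here after its values were seen. It was listed at 0, 0, 0 and 0.141 FPKM in ZH Het and 1.29, 0.895, 1.08 and 1.90 FPKM in ZH KO oocytes, which rest on 0 to 1 and 5 to 9 reads per library. All KO values were higher, and no model was fitted to it.

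CabZ GV oocytes showed fewer differences, and 2 of their 4 KO libraries stood apart. Of 34 histone genes tested, 2 were called up (2.07% of all 6339 genes tested were) and 1 called down (0.836%). At any size 6 were higher and 1 was lower, against 8.2% and 5.73% of all genes. The median was 0.11 against -0.023 over all genes. H2afz was higher here too, with 19.2, 21.3, 10.1 and 10.9 FPKM in CabZ Het and 30.7, 40.6, 38.9 and 26.8 in CabZ KO libraries. The groups did not overlap (1.15, SE 0.24, adjusted p 0.0117, limma), and the mean was 2.23-fold higher. Hist1h1c, which encodes a somatic linker histone, rose from 0.586 ± 0.152 to 2.74 ± 0.831 FPKM (SD, n = 4 each; 1.22, SE 0.15, adjusted p 0.000925, limma), and it passed the filter only through the KO libraries.

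Hist1h2ap and H2afx had differences of the other sign from those in the ZH line. Hist1h2ap had 24.5, 22.3, 15.7 and 12.8 FPKM in CabZ Het and 6.66, 7.32, 8.77 and 9.40 in CabZ KO libraries, and was called down without overlap (-1.10, SE 0.20, adjusted p 0.00564, limma). Without Het library 1 its difference was -0.96 (adjusted p 0.0162, limma), under the fold threshold, and the count of genes called down was 0. H2afx had 134, 141, 175 and 148 FPKM in Het and 263, 208, 177 and 205 in KO oocytes. Its difference was 0.50 (SE 0.14, adjusted p 0.0397, limma), and the adjusted p was between 0.0259 and 0.119 with single libraries left out, over 0.05 for 6 of the 8. H2afj was also higher, at 51.8 ± 4.53 and 78.4 ± 10.6 FPKM (SD, n = 4 each).

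Several replication-dependent genes divided the CabZ KO libraries into a pair with high and a pair with low values. The clearest was Hist1h2bn, an H2B gene (chr13:21754123-21754504, plus strand), at 0, 0, 0 and 0.257 FPKM in the Het libraries and 0, 0.600, 79.3 and 71.6 in KO libraries 1 to 4. Only KO libraries 3 and 4 held more than a few reads of it. Hist2h2aa1 had 133, 90.9, 122 and 110.0 FPKM in Het and 105, 98.1, 185 and 219 in KO libraries. Hist1h4h, an H4 gene, had 42.5, 37.1, 38.8 and 42.8 FPKM in Het and 24.0, 23.6, 48.0 and 57.4 in KO libraries, so that KO libraries 1 and 2 lay below and 3 and 4 above all Het libraries. Hist1h2bk, another H2B gene, had 35.3, 28.9, 35.9 and 34.1 FPKM in Het and 32.8, 20.2, 48.9 and 47.4 in KO libraries. None of these 4 genes passed the test over all 4 KO libraries (adjusted p 0.154 to 0.881, limma).

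**Figure D2:**
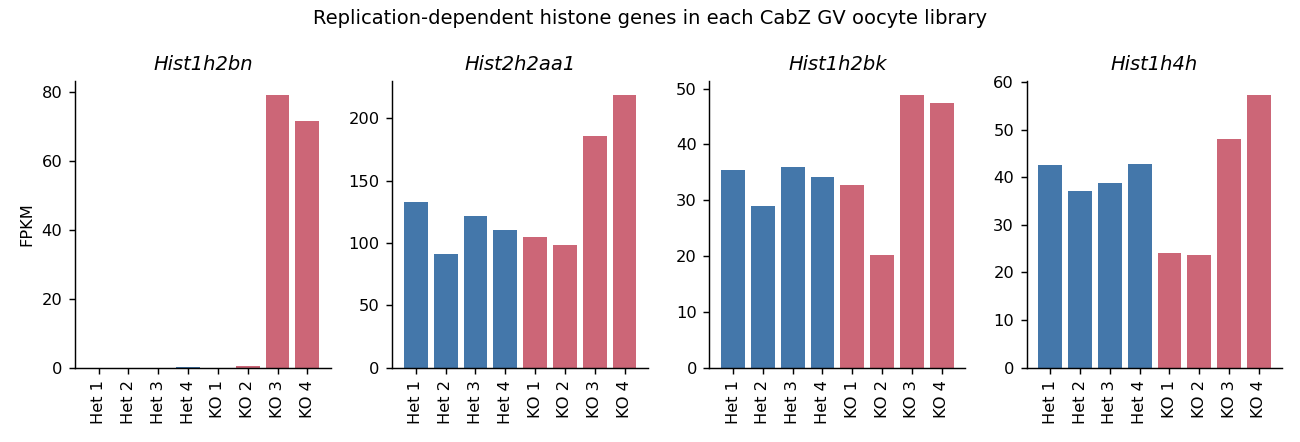
Bars from 0 show FPKM of Hist1h2bn, Hist2h2aa1, Hist1h2bk and Hist1h4h in the 4 CabZ Het (blue) and 4 CabZ KO (red) GV libraries, numbered as replicates. KO libraries 3 and 4 were higher than all other libraries for each gene, with 79.3 and 71.6 FPKM for Hist1h2bn.

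The pairs were seen in these values, so the fits with 1 pair of KO libraries alone, given further below, are descriptions and do not test the pairs. They were not particular to histone genes. Over all 6339 genes tested, deviations from the KO mean correlated at 0.13 for KO libraries 1 and 2 and at 0.28 for 3 and 4. Across the pairs the correlations were -0.69 to -0.54. The mean was that of the same 4 libraries, which by itself makes such correlations negative on average. Without KO library 1, 5 histone genes were called up. H1foo differed little within either pair, as all 4 of its KO values lay between 1117 and 1167 FPKM. Hist1h2ba, for which adjusted p was 0.0542 over all libraries, had 2.39, 4.93, 6.87 and 4.51 FPKM in Het and 5.75, 8.74, 16.2 and 13.1 in KO libraries.

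The summed level of replication-dependent genes was counted in RPM, reads scaled to the depth of the library without regard to length. In ZH GV oocytes it was 317 ± 44.4 in Het and 385 ± 82.0 in KO libraries (SD, n = 4 each), with overlap. Hist1h2bc, an H2B gene whose span of 8710 bases holds 1156 bases of exon, held most reads in both GV tables, and without it the sums were 127 ± 23.1 and 265 ± 57.3. In CabZ GV oocytes the sum was 482 ± 45.7 in Het, 348 and 332 in KO libraries 1 and 2, and 557 and 589 in KO libraries 3 and 4. The sum thus lay below the Het range in one pair of KO libraries and above it in the other. Without Hist1h2bc it was 179 to 207 in Het and 178, 160, 309 and 325 in KO libraries, so that KO libraries 1 and 2 were closer to the Het range, and the ratio of the means went from 0.947 to 1.28.

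**Figure D3:**
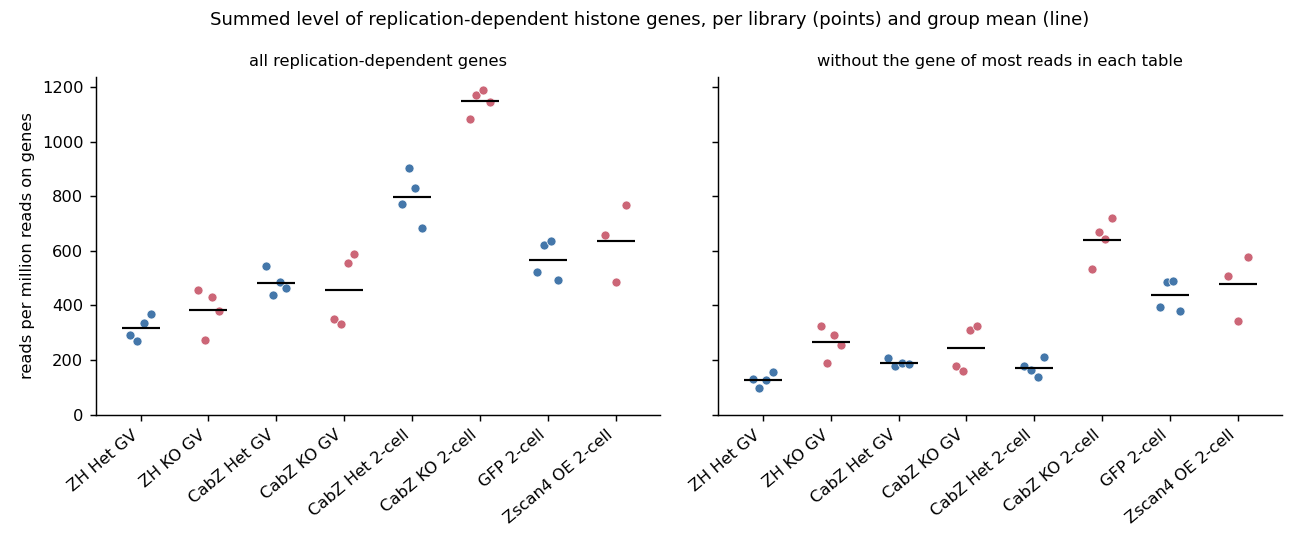
Reads scaled to library depth (RPM), summed over the replication-dependent histone genes of each table, for each library (points) and group mean (line), with all genes (left) and without the gene of most reads (right). That gene was Hist1h2bc in GV oocytes, Hist1h2ap in CabZ 2-cell embryos and Hist2h2aa1 in injected 2-cell embryos. CabZ KO 2-cell embryos had 1083 to 1190 against 684 to 903 in CabZ Het, and the CabZ KO GV libraries fell into a high and a low pair.

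In CabZ 2-cell embryos most called histone genes were higher in KO. Of 55 tested, 28 were called up (16.9% of all 7798 genes tested were) and 2 down (20.4%), the 2 being the variants H2afv and H2afj. At any size 28 were higher and 3 lower, against 25.2% and 30.9% of all genes. The 25 replication-dependent genes called up came from all 5 families, with 3 of 4 tested genes of H1, 3 of 12 of H2A, 6 of 11 of H2B, 7 of 9 of H3 and 6 of 9 of H4. No replication-dependent gene was called down, and 0 of the 45 tested were lower at an unadjusted p under 0.05 (limma), where 28 were higher. Their median difference was 1.36, against -0.11 over all genes tested. Median scaling moved the median over all genes by 0.24, less than any of the called differences, and it turned the balance over all genes, of whose calls 60.9% were then up against 45.3%. Of the 45 genes, 15 passed the filter only through the KO libraries, and 11 of these were called up. Among the 30 with a mean of at least 1 FPKM in both groups, 14 were called up. The share over all genes was not counted for this condition. With a filter at 5 FPKM 16 histone genes were called up, beside 641 of all 3237 genes tested. With the values as in the table, before FPKM were restored, 10 were called up, beside 197 of all 871 genes tested.

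**Figure D4:**
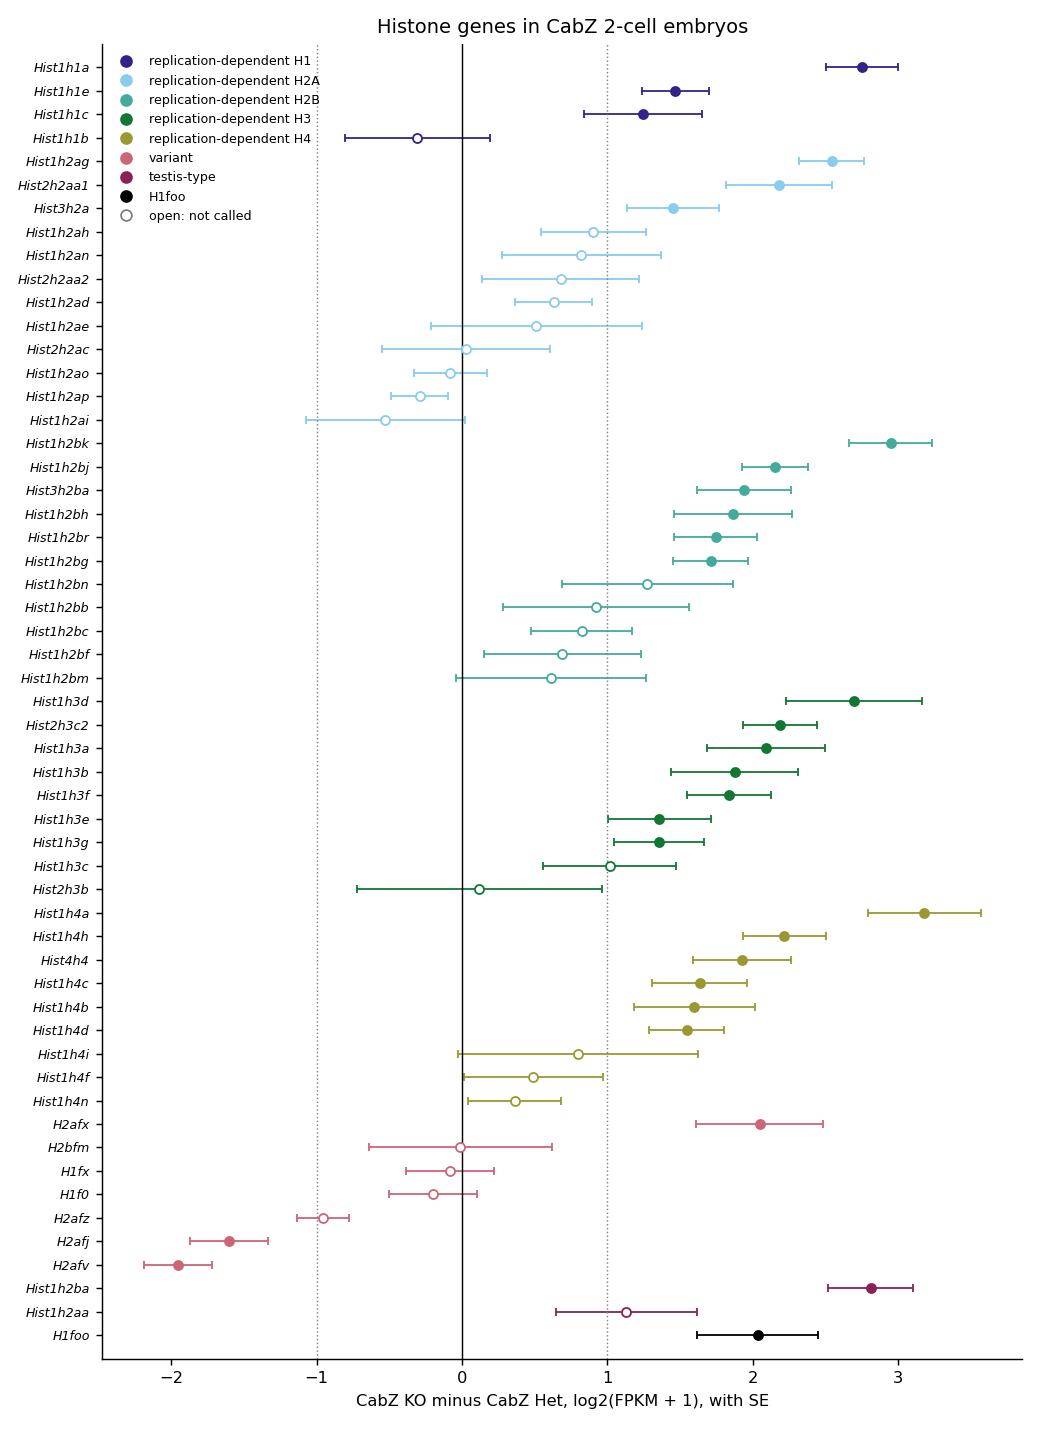
Difference between CabZ KO and CabZ Het 2-cell embryos (log2 of FPKM + 1, with SE) of the 55 histone genes tested, by class and family, filled where called. The 25 called replication-dependent genes and H1foo are to the right of the dotted threshold at 1, and H2afv (-1.95) and H2afj (-1.60) to the left of that at -1.

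The largest rise on the log2(FPKM + 1) scale was that of Hist1h4a, an H4 gene without the stem-loop motif. It had 3.92, 1.53, 1.95 and 5.82 FPKM in CabZ Het and 19.9, 40.1, 32.8 and 57.0 in CabZ KO embryos (3.18, SE 0.39, adjusted p 0.000312, limma). Hist1h2bk had 7.22, 5.93, 7.29 and 4.03 FPKM in Het and 38.4, 44.8, 51.1 and 88.7 in KO embryos (2.95, SE 0.28, adjusted p 0.000174, limma). In both genes every KO library was far above every Het library. Hist1h1a, the linker histone H1.1 (chr13:23763666-23764407, plus strand), shares no 100-base window with another of the histone genes examined. It had 18.0, 12.2, 12.0 and 9.34 FPKM in Het and 116, 81.4, 67.2 and 104 in KO embryos, a 7.15-fold difference in the mean (2.75, SE 0.25, adjusted p 0.000137, limma). Hist1h3d, an H3 gene, had 0.103, 0, 0 and 1.17 FPKM in Het and 11.2, 11.9, 7.92 and 2.00 in KO embryos. Its KO values were all higher, with library 4 the nearest to the Het range, and the ratio of the means was 26.0 (difference 2.70, SE 0.47, adjusted p 0.00132, limma). It passed the filter only through the KO libraries. For Hist1h2bg and Hist1h3b, chosen after their values were seen, no Het library held a read, and against a floor of 3 reads per library they were at least 4.03-fold and at least 5.59-fold higher in KO.

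Hist1h2ba was the testis-type gene that rose, from 3.34, 3.39, 1.96 and 1.72 FPKM to 17.2, 21.8, 20.5 and 40.7 (2.81, SE 0.29, adjusted p 0.000217, limma). Its neighbour Hist1h2aa had 2.77 ± 2.23 FPKM in Het and 6.52 ± 2.81 in KO embryos, with overlap (1.13, SE 0.49, adjusted p 0.0741, limma). H2afx was the variant that was called up. It had 10.2, 22.9, 22.2 and 4.91 FPKM in Het and 49.8, 42.7, 79.6 and 58.7 in KO embryos, without overlap (2.05, SE 0.44, adjusted p 0.0036, limma).

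Hist1h2ap, the most abundant histone mRNA of CabZ Het 2-cell embryos, did not pass the test. It had 1229, 1537, 1436 and 984 FPKM in Het and 1143, 1040.0, 1136 and 878 in KO embryos. The groups overlapped (-0.29, SE 0.20, adjusted p 0.230, limma). It therefore set much of the summed level, which was 796 ± 92.6 RPM in Het and 1147 ± 46.7 in KO libraries (SD, n = 4 each), a ratio of 1.44. Without Hist1h2ap the sums were 171 ± 30.5 and 641 ± 79.5, a ratio of 3.74. The groups did not overlap in either sum. Of the 12 replication-dependent H2A genes tested, 3 were called up. One of them, Hist2h2aa1, had 50.4, 31.1, 22.1 and 42.9 FPKM in Het and 82.4, 172, 210 and 231 in KO embryos, all higher (2.18, SE 0.37, adjusted p 0.00110, limma).

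Variants of the H2A.Z kind and H2afj were lower in CabZ KO embryos, whereas H2afz and H2afj were higher in CabZ KO GV oocytes. H2afz had 708, 703, 770.1 and 730.3 FPKM in Het and 447, 395, 390.2 and 285 in KO embryos. No values overlapped, and the difference of -0.96 (SE 0.18, adjusted p 0.00199, limma) was just inside the fold threshold. H2afv, which encodes a second form of H2A.Z, fell from 26.0 ± 5.06 to 6.06 ± 2.01 FPKM (SD, n = 4 each; -1.95, SE 0.23, adjusted p 0.000296, limma). H2afj had 125, 193, 238 and 178 FPKM in Het and 61.5, 81.5, 57.5 and 39.8 in KO embryos (-1.60, SE 0.27, adjusted p 0.00110, limma). The linker variants H1f0 and H1fx, at 27.7 ± 4.66 and 25.4 ± 9.94 FPKM and at 2.18 ± 1.19 and 1.98 ± 0.915 FPKM, overlapped between the groups.

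Features of the genes were set beside the calls without a test. Of the replication-dependent genes tested in CabZ 2-cell embryos, 12 of 16 with a poly(A) signal were called up (median 1.73), and 13 of 29 without one (median 1.01). Of those with more than 50 percent of their windows in another of the histone genes examined 6 of 16 were called up, and of the others 19 of 29. By cluster, 20 of 37 genes of Hist1, 2 of 5 of Hist2, both of Hist3 and Hist4h4 were called up. Over all genes tested 16.9% were called up. The counts by feature include 11 called genes that passed the filter only through the KO libraries, which had to be higher for that reason.

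In injected 2-cell embryos no histone gene passed the test. Of 30 tested, 0 were called up (0.0233% of all 4293 genes tested were) and 0 down (1.42%), and at any size 0 were higher and 0 lower (0.0932% and 1.7% of all genes) with limma. At an unadjusted p under 0.05, 2 were higher and 1 lower. The median was 0.17, against 0.031 over all genes tested. H2afz had 86.6, 112, 77.5 and 90.7 FPKM with GFP and 56.0, 38.4 and 71.1 with Zscan4 OE. The Zscan4 OE values were all below the GFP values, at an adjusted p of 0.128 (-0.75, SE 0.23, limma). Hist1h1a had 51.6, 40.3, 60.8 and 28.7 FPKM with GFP and 59.9, 80.7 and 74.7 with Zscan4 OE, with overlap (0.69, SE 0.25, adjusted p 0.189, limma). The 2 most abundant replication-dependent genes, Hist1h2ap and Hist2h2aa1, were at 191 ± 35.0 and 146 ± 17.7 FPKM with GFP (n = 4) and at 144 ± 63.6 and 185 ± 32.1 with Zscan4 OE (SD, n = 3), and neither passed the test.

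The genes that transcribe and process histone mRNAs were measured beside the histones. Of 39 such genes, 22 were tested in ZH GV oocytes, where 3 were called up and 1 down, beside 10.5% and 7.2% of all genes. Both shares were thus near those of all genes. Those up were Zfp473, a partner of the stem-loop complex (1.66 ± 0.443 to 7.26 ± 2.81 FPKM), Ccne2, a cyclin E that activates Npat (6.20 ± 1.67 to 18.5 ± 11.4), and Lsm1 of the mRNA decay complex. In CabZ GV oocytes 0 of 23 were called, and in injected embryos 0 of 16. Slbp itself, the stem-loop binding protein, was at 155 ± 18.8 and 154 ± 21.0 FPKM in ZH Het and KO, at 170 ± 21.2 and 196 ± 36.9 in CabZ Het and KO oocytes, at 34.7 ± 1.04 and 27.5 ± 7.83 in CabZ Het and KO 2-cell embryos and at 79.5 ± 19.0 and 137 ± 46.6 with GFP and Zscan4 OE. It passed the test in none of these comparisons.

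In CabZ 2-cell embryos 1 of 22 genes of this list was called up and 5 down, beside 16.9% and 20.4% of all genes, with a median of -0.41 against -0.11 over all genes. The share called down was thus near that of all genes. Ccne1, the other cyclin E, fell from 18.6 ± 3.27 to 5.06 ± 2.62 FPKM (-1.76, SE 0.28, adjusted p 0.000885, limma). Npat was lower by less than the fold threshold, at 3.34 ± 0.617 and 1.29 ± 0.460 FPKM (SD, n = 4 each; -0.93, SE 0.20, adjusted p 0.00352, limma). Lsm1 rose from 12.1 ± 4.41 to 37.9 ± 3.67 FPKM. Histone chaperones, 33 genes of which 20 were tested, had 1 called up and 4 down in the same embryos, again a share down near that of all genes. The gene up was Npm2, the nucleoplasmin of the egg (11.7 ± 3.54 to 44.4 ± 3.79 FPKM), which is also on the oocyte list. Nasp, a chaperone of H1 and H3-H4, fell from 17.0 ± 3.25 to 5.95 ± 2.03 FPKM and Ptma, a binder of H1, from 35.7 ± 5.06 to 10.9 ± 3.11 FPKM (SD, n = 4 each). In ZH GV oocytes 2 chaperones of 20 tested were called up and 3 down, beside 10.5% and 7.2% of all genes. The share called up was thus near that of all genes. At any size 4 were higher and 7 lower, against 25.6% and 26.3% of all genes. Those called up were Npm1 (18.9 ± 2.98 to 64.0 ± 23.4 FPKM) and Hat1, which acetylates new H4 (3.09 ± 0.504 to 10.3 ± 1.62). In CabZ GV oocytes and injected embryos 0 were called. Two-cell-stage markers, which mark genome activation, summed to 9.48 to 11.9 FPKM in ZH Het and 116 to 191 in ZH KO oocytes, and to 15.4 to 17.5 and 39.2 to 60.6 FPKM in CabZ Het and KO oocytes. They moved with the rise of H2afz in both lines, and their part in it was not tested.

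ATAC-seq measures open chromatin by the insertion of a transposase, and peaks were called by library. A histone gene was counted where a peak summit stood within 500 bases of its start. Among the 53 histone genes of the CabZ GV table this was so for 3, 10 and 21 genes in CabZ Het libraries A, B and C (5.66%, 18.9% and 39.6%). The CabZ KO libraries A, B and C had 5, 2 and 7 (9.43%, 3.77% and 13.2%). Over all 14131 protein-coding genes of that table the shares were 8.97%, 17.3% and 32.5% in Het and 12.0%, 3.75% and 4.88% in KO libraries. The histone share thus went with the share of all genes, apart from KO library C, and with the number of peaks called, which was 19160 to 111327 per library. With 3 libraries per genotype an exact permutation test cannot give a p under 0.1, and the genotypes overlapped.

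**Figure D5:**
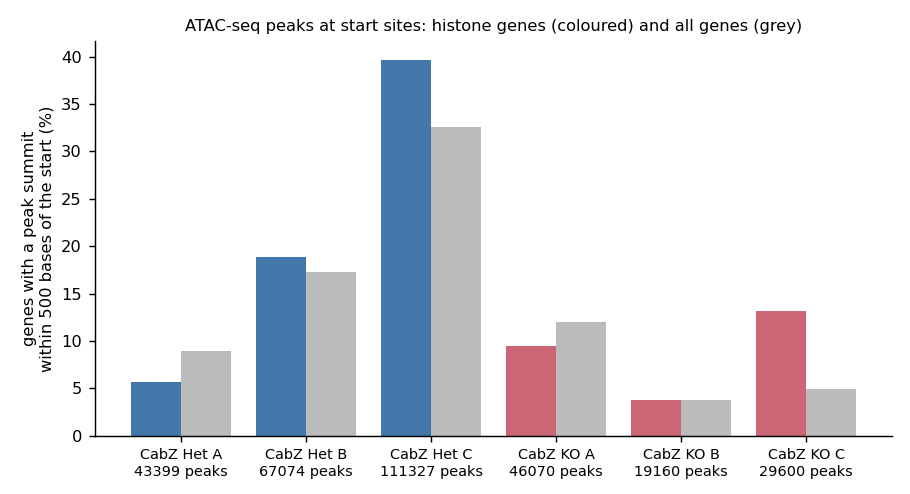
Share of 53 histone genes (Het blue, KO red) and of 14131 protein-coding genes (grey) with an ATAC-seq peak summit within 500 bases of the start, in each CabZ GV library, with the number of peaks under its name. The histone share was 5.66% to 39.6% in Het and 3.77% to 13.2% in KO libraries, and it was highest in the library with most peaks.

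At least 1 library had a peak at 24 of the 53 starts (45.3%), against 43.4% of all genes, and 0 had one in all 6 libraries, against 0.205% of all genes. Without CabZ Het library C, 16 remained. H1foo had a peak in 2 Het and 2 KO libraries, with fold enrichments of 3.27 and 4.69 in Het and 4.05 and 5.41 in KO over background. Hist1h2aa and Hist1h2ba, with the shared promoter printed above, had peaks in 4 of 6 libraries each, some of them the same peak, as had H2afj and Hist4h4. H2afz and Hist1h2ap, which were called in CabZ GV oocytes, and Hist2h2aa1, which was called only in CabZ 2-cell embryos, had no summit within this distance in any library. That a peak was not called does not show closed chromatin at this depth.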

How the data were processed

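Expression was measured by RNA-seq in 31 libraries (4 tables) and open chromatin by ATAC-seq in 6. Groups follow the titles, which give genotype or injected RNA and stage. Per the methods and processing notes, the authors aligned reads to mm10 (GRCm38) with STAR 2.5.3a and adjusted them to FPKM in Partek. The ZH and injected-embryo tables were deposited by the authors as FPKM over the whole gene span with a small constant added. The 2 CabZ tables hold score values of the authors, which are reads divided by the gene span 2 times and scaled to equal totals. FPKM were restored there by subtracting the minimum, multiplying by the span and scaling to reads, and this differs from the FPKM for which the tests had been designed. Reads were recovered from the steps of low values, of which 81.1% to 88.6% per library lay within 0.1 of a whole number. ATAC-seq peaks were called by the authors with MACS2 on each library, after alignment with Bowtie2 2.3, and their deposited columns hold the score, the signal as a fold ratio over background, and p-values and q-values as -log10.

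Within each table, limma 3.58.1 (R 4.3.3) was run on log2(FPKM + 1) for genes averaging 1 FPKM or more, with Benjamini-Hochberg adjustment over all genes tested, an adjusted p under 0.05 and a log2 difference above 1. Other steps ran in Python 3.11.15 (pandas 2.3.3, numpy 2.4.6; plots with matplotlib 3.10.9; binomial intervals with scipy 1.17.1). The test was checked on simulated data. A shared window is 1 of 100 bases of exon found in another of the histone genes examined. Reads are not molecules, so depth gives counting error only.

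The members and gene lists were chosen with earlier results of these data known. Named were H1foo, variants with a mean of at least 1 FPKM, testis-type genes, the 5 replication-dependent genes of highest mean per table, the 5 called genes of largest change per direction, and of the 2 companion lists the 3 called genes of largest change per comparison with Slbp, Npat and Nasp. Genes named for their overlap, lack of stem-loop or values in single libraries (among them Hist1h2bn) were chosen after their values were seen. Alternatives were the pseudocount, the filter, the scaling, the values as in the table, the replicate block and each library left out. Replicate numbers were not used to pair samples, since the deviations of same-numbered samples did not correlate throughout.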

Additional observations from a re-analysis of the deposited data

Results flagged for a closer look

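In 164 groups of 4 libraries, 1 value lay far from the other 3 (gap to the nearest value over the range, past Dixon's critical value) in 8 groups, or 4.88%. Chance gives about 1 in 20 groups. These were H2afj in ZH KO GV library 2 (39.0 FPKM, others 45.6 to 46.4), Hist2h3c1 in ZH KO GV library 3 (1.33, others 0 to 0.00187) and Hist1h2bn in CabZ Het GV library 4 (0.257, others 0). In CabZ Het 2-cell embryos they were Hist1h2bj in library 1 (36.9, others 19.2 to 21.3), Hist1h3d in library 4 (1.17, others 0 to 0.103) and Hist1h1c in library 4 (11.8, others 2.81 to 4.27). In CabZ KO 2-cell embryos they were H2afv (9.04, others 4.77 to 5.46) and Hist1h4d (3.47, others 7.51 to 7.72), both in library 3.

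The ZH and CabZ lines were set side by side at the GV stage, and the GV and 2-cell stages within the CabZ line. In 4 genes all libraries of one of these comparisons moved one way and all of the other the opposite way, and the difference between the comparisons was not tested. H2afx differed by -1.33 in ZH GV oocytes and by 0.50 in CabZ GV oocytes. Hist1h2ap differed by 4.52 in ZH and by -1.10 in CabZ GV oocytes. H2afj differed by 0.58 in CabZ GV oocytes and by -1.60 in CabZ 2-cell embryos. H2afz differed by 1.15 in CabZ GV oocytes and by -0.96 in CabZ 2-cell embryos. The tables hold separately normalised values.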

How the results depend on the processing

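Of 82 values of single named genes under 1179 settings in all, 1129 kept their side of the adjusted p threshold, 32 lost significance and 18 gained it. Direction was compared only for the 50 values past that threshold in the main fit, and 0 of these reversed. Values not past it could change sign, as Hist2h2aa1 did in CabZ GV oocytes (-0.15 to 0.83). The histone genes called up in ZH GV oocytes (4) numbered 2 with a filter at 5 FPKM, 8 with scaling to the reads of the table and 8 without a fold threshold. Those called down (3) numbered 6 without it. In CabZ GV oocytes 2 were up with all libraries, 1 without a filter, 0 with the values as in the table, 6 without a fold threshold and 5 with KO libraries 3 and 4 alone. There the 1 called down became 0 with the values as in the table, 2 with KO libraries 1 and 2 alone and 0 with KO libraries 3 and 4 alone. In CabZ 2-cell embryos the 28 called up became 16 with a filter at 5 FPKM and 10 with the values as in the table, where 0 were called down. Fewer genes were tested under both settings. The fits with 2 KO libraries, and the sums in FPKM and per kilobase of exon, were chosen after seeing the data. The KO libraries were split on these same values, so those counts are descriptions. Leaving out 1 library gave 3 to 6 up and 3 to 4 down in ZH GV oocytes and 2 to 5 up and 0 to 1 down in CabZ GV oocytes, with 5 up without KO library 1 and 0 down without Het library 1. The summed ratio for replication-dependent genes was 2.06 (FPKM) and 2.09 (without Hist1h2bc) in ZH GV oocytes, against 1.21, and 1.24 (FPKM), 1.25 (per kilobase of exon) and 3.74 (without Hist1h2ap) in CabZ 2-cell embryos, against 1.44. Starts with an ATAC-seq peak numbered 24, 7 at a -log10 q of at least 5 and 16 to 24 with 1 library left out, with 16 without CabZ Het library C. Other cases kept the count within 1.5 times, and what moved the values was not tested.

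With the replicate block, 4 histone genes were up and 3 down in ZH GV, 3 and 1 in CabZ GV, 30 and 2 in CabZ 2-cell and 0 and 0 in injected samples, and H1foo differed by -0.90, -0.10, 2.03 and 0.34. In injected samples the block also leaves out GFP library D, which has no partner. Over all genes 0 were then up and 2 down, against 0 and 48 without GFP library D and no block, and 1 and 61 with all libraries. Correlations of same-numbered samples ranged from -0.41 to 0.40, so the numbers do not show pairs. Few reads limit the genes near the filter.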
